A study of Homo sapiens with 3 samples.

Results

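The genes described here carry out sphingolipid and glycosphingolipid metabolism. They were taken by symbol, as the rows of the gene count table whose Ensembl identifiers correspond to 44 named genes of ceramide synthesis, sphingomyelin turnover, glycolipid synthesis, lysosomal breakdown and sphingosine phosphate metabolism. All 44 were found among the 58381 genes of the table. The selection rule uses names and no measured value, although the list was drawn up with earlier results of these data known. RNA sequencing was performed on T24 cells, a human bladder urothelial carcinoma line, in 3 conditions with 1 library each. Ctrl cells were not irradiated and RT cells received 10 Gy of ionizing radiation. RT + shHDAC6 cells received the same dose and carried a lentiviral short hairpin RNA against HDAC6, a mainly cytoplasmic deacetylase of tubulin and other proteins. The protocol names a pLKO.1 control vector and puromycin selection for the transduced cells, while the treatment of the Ctrl library is labelled only as Empty. No unirradiated knockdown library was analysed here, and 1 hairpin in 1 cell line was used, so an effect of the hairpin cannot be separated from an effect that depends on irradiation. The time between irradiation and RNA extraction was not given in the labels.

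Sphingolipids are built on a sphingoid base that serine palmitoyltransferase makes in the endoplasmic reticulum from serine and palmitoyl-CoA. Ceramide, the common intermediate, is converted to sphingomyelin or, through glucosylceramide, to lactosylceramide, gangliosides and globosides, and all of these are taken apart again by lysosomal hydrolases and their activator proteins. Ceramide is also released by sphingomyelinases and is degraded by ceramidases to sphingosine, which sphingosine kinases phosphorylate to sphingosine 1-phosphate. In irradiated cells, ceramide from acid sphingomyelinase and from ceramide synthases is known as a death signal, whereas sphingosine 1-phosphate is known for supporting survival.

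The libraries held 41811165 (Ctrl), 35959265 (RT) and 35424086 (RT + shHDAC6) counted reads, of which mitochondrial genes took 3.75%, 6.09% and 5.51%. HDAC6 had 3098, 2383 and 2170 reads. Its scaled log2 ratio between RT + shHDAC6 and RT was -0.20 (95% counting interval -0.28 to -0.11). The RNA of the targeted gene was thus lower in the knockdown library by less than 1.5-fold. That ratio was at the 25.4th percentile of all genes tested, so it did not stand out from other genes. The epithelial keratin KRT18 had 7336, 8362 and 9048 reads, while the uroplakins UPK1A, UPK1B, UPK2 and UPK3A, which define differentiated urothelium, had at most 18 reads in any library. Of 15 epithelial and urothelial markers 10 were tested. Between Ctrl and RT 8 of these lay below 0, each with an interval that excluded 0, and the median was -0.42, with KRT18 the only rise and KRT19 the only fall (log2 ratio -0.67). In RT + shHDAC6 against RT, 7 lay above 0, with a median of 0.26, and 3 fell, KRT7 (3533, 3854 and 597 reads, -2.75), GATA3 (-1.07) and PPARG (-0.95). The summed markers of immune cells (5 genes), endothelium (3 genes) and fibroblasts (5 genes) were at their highest in Ctrl, with 368, 1049 and 14170 reads, and came to 192, 486 and 8101 reads in RT and 188, 674 and 7095 in RT + shHDAC6. After scaling, the log2 ratios of these sums were -0.50, -0.67 and -0.37 for RT against Ctrl. For RT + shHDAC6 against RT they were -0.092, 0.41 and -0.25, with 3 fibroblast genes above 0 and 2 below. The part of these markers in the values below was not tested. Because each condition is a single library, no spread between cultures could be measured and no p-value is given. The intervals printed are 95% intervals of counting error only, and fewer cells of a kind and less RNA per cell cannot be told apart in bulk RNA.

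The listed sphingolipid genes were predominantly higher after irradiation. A gene was tested where it averaged at least 50 reads over the libraries, which 13636 genes and 41 of the 44 sphingolipid genes did, and a difference of at least 1.5-fold on TMM-scaled counts was called a rise or a fall. Between Ctrl and RT, 20 of the 41 rose, against 15.6% of all genes tested, and 1, the GM3 synthase ST3GAL5, fell, against 10.6% of all genes tested. The median log2 ratio of the 41 was 0.51, against 0.045 over all genes tested, and 36 of the 41 lay above 0, each with a counting interval that excluded 0. Of all 13636 genes tested, 53.8% lay above 0, and 5675 genes had an interval above 0. The reads of all 44 genes together made up 0.360% of the Ctrl library, 0.518% of the RT library and 0.456% of the RT + shHDAC6 library.

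Between RT and RT + shHDAC6 the values were smaller and ran mostly the other way. None of the 41 rose, against 3.69% of all genes tested, and 4 fell, namely ST3GAL5, B4GALNT1, A4GALT and ARSA, against 6.04% of all genes tested. A count of 4 in 41 is 9.76%, and the first 3 of them are glycosyltransferases of glycolipid synthesis. The median log2 ratio was -0.19, against -0.018 over all genes tested, and 33 of the 41 lay below 0, of which 27 had a counting interval that excluded 0. Of all 13636 genes tested, 52.9% lay below 0, and 4212 genes had an interval below 0. The RT library is shared by both steps, so a chance deviation in it would move the values of the steps in opposite directions. With that limit, 29 of the 41 genes were highest in RT, and for 26 of these the counting interval excluded 0 at both steps. The share of all genes tested that were highest in RT was not counted. Without that share, the counts of 29 and 26 describe these genes but cannot set them apart from other genes.

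The 44 listed genes hold few sparse ones, with 3 under the mean of 50 reads against 17 of 44 further genes of the pathway, and this bears on the comparison with all genes. Per exon length, their median level was 36.8 TPM (reads per exon length, scaled to the same sum in each library) in Ctrl, 39.8 in RT, and 42.0 in the RT + shHDAC6 library, against 26.6, 22.8 and 23.9 over all genes tested. Between Ctrl and RT, genes with 50 to 200 reads had a median log2 ratio of -0.22, while genes with 1000 to 5000 reads had one of 0.11 and genes with at least 5000 reads had one of 0.16. The sphingolipid genes were therefore also set beside genes of the same abundance. Of the 2 with 50 to 200 reads none rose or fell, with a median of -0.20, against 10.6% and 25.6% of all genes in that range. Of the 5 with 200 to 1000 reads none rose and 1 fell, against 13.4% and 11.2% of all genes in that range, although their median of 0.42 lay above the 0.036 of those genes. Of the 24 with 1000 to 5000 reads 11 rose and none fell, with a median of 0.47, against 17.1% and 4.63% of all genes in that range. Of the 10 with at least 5000 reads 9 rose and none fell, with a median of 0.88, against 23.96% and 2.97% of all genes in that range. Between RT and RT + shHDAC6, 2 of the 5, 1 of the 24 and 1 of the 10 fell, against 7.1%, 3.3% and 3.0% of all genes in the same ranges. None of the 2 with 50 to 200 reads fell at that step, against 11.7%.

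PSAP, which encodes prosaposin, the precursor of the saposins that present glycolipids to lysosomal hydrolases, was the most abundant member, with 1199, 1840 and 1414 TPM in Ctrl, RT and RT + shHDAC6. It accounted for 34.2%, 37.7% and 33.2% of the TPM of all 44 genes. The next levels in Ctrl were those of the lactosylceramide synthase B4GALT5 (308 TPM), the ceramide synthase CERS2 (203 TPM) and the dihydroceramide desaturase DEGS1 (179 TPM). At the low end, the GD3 synthase ST8SIA1 had 0.194, 0.145 and 0.0496 TPM, on 26, 18 and 6 reads. TPM values were used to order genes within a library. Differences between libraries are given on TMM-scaled counts, which can differ from TPM where abundant transcripts shift.

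The 3 members with the largest ratios between Ctrl and RT were SPHK1, SMPD1 and DEGS1, 1 each from sphingosine phosphate metabolism, sphingomyelin breakdown and ceramide synthesis, followed by the lysosomal galactosidase gene GLA. The sequences upstream of their start sites are shown because of these ratios, and not for the elements they hold. That of the lysosomal sialidase gene NEU1 was added, the only member with a listed promoter in which TCACGTG was found. Each is the 250 bases before the start site of a RefSeq transcript (GRCh38.p14), written 5′ to 3′ in the direction of transcription. Capitals mark the GC box GGGCGG or its reverse complement and, in NEU1, the element TCACGTG, the core of the CLEAR motif of lysosomal genes, which contains the E-box CACGTG. The SPHK1 sequence lies at chr17:76384359-76384608 on the plus strand, SMPD1 at chr11:6390224-6390473 plus, DEGS1 at chr1:224182990-224183239 plus, GLA at chrX:101407926-101408175 minus and NEU1 at chr6:31862822-31863071 minus.
SPHK1: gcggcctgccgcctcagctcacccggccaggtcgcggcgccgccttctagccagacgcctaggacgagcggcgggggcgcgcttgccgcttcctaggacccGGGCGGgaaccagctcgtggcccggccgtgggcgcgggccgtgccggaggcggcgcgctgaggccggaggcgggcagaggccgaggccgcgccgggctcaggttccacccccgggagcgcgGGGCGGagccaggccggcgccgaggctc
SMPD1: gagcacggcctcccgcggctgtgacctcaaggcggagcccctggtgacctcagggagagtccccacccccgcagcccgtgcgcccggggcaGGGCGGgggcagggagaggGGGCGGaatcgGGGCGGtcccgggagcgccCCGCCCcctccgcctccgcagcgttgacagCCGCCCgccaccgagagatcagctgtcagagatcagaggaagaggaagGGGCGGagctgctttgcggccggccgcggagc
DEGS1: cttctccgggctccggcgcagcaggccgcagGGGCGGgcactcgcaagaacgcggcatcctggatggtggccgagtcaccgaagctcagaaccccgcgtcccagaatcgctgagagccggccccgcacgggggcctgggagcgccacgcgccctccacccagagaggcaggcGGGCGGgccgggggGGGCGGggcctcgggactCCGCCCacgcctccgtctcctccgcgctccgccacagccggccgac
GLA: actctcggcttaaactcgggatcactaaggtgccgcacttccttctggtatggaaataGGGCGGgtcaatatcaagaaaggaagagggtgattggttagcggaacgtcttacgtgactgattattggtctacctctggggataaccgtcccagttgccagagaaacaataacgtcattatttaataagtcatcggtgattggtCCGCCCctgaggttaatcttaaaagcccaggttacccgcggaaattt
NEU1: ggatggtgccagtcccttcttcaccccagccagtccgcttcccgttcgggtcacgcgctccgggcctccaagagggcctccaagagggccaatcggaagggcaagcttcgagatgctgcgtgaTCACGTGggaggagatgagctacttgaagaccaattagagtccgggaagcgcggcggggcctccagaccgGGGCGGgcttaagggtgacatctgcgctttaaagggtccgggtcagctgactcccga

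These promoters differed in base composition and in the number of GC boxes. SMPD1 held 6 GC boxes at 75.2% G and C, DEGS1 held 4 at 76.8%, SPHK1 held 2 at 80.8%, GLA held 2 at 46.8% and NEU1 held 1 at 63.2%. A promoter was listed for 32 of the 44 genes, and all 32 had a GC box on either strand in at least 1 listed promoter, against 74.7% of the 10085 tested genes with a promoter and 42.6% of all 35116 promoters. The TCACGTG core was found for 1 of the 32, NEU1, where it starts at position -127 from the start site, against 6.55% of tested genes and 3.31% of all promoters. It was found for 6 of 26 other lysosomal genes, ATP6V0D1, CTSD, GAA, GALNS, LAMP1 and MCOLN1. The lysosomal members PSAP, HEXA, ARSA and ASAH1 had no listed promoter and were not searched. The 32 also include many genes that act outside the lysosome, so the count of 1 does not describe the lysosomal members as a set. The shorter E-box was likewise found for NEU1 alone among the 32, against 11.0% of tested genes and 6.35% of all promoters. A match describes letters in this window and is not evidence of binding.

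In the synthesis of ceramide and its ORMDL regulators, 8 of 12 tested genes rose after irradiation (15.6% of all genes tested) and none fell (10.6%), with a median log2 ratio of 0.68. Between RT and RT + shHDAC6 none of the 12 passed 1.5-fold either way, where 3.69% of all genes tested rose and 6.04% fell, and the median was -0.17. The largest rise was that of DEGS1, which encodes the desaturase that turns dihydroceramide into ceramide. It had 4067 reads in Ctrl, 7293 in RT, and 7268 in the RT + shHDAC6 library. The Ctrl library was low and both irradiated libraries were high, with a log2 ratio of 1.28 (1.22 to 1.33) for RT against Ctrl, 2.42-fold, and of -0.067 (-0.11 to -0.020) for RT + shHDAC6 against RT.

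The subunits of serine palmitoyltransferase, the first and rate-limiting enzyme, did not move together. SPTLC1, the shared subunit, had 5297, 6905 and 6996 reads in Ctrl, RT and RT + shHDAC6, a log2 ratio of 0.82 (0.77 to 0.87) and then of -0.043 (-0.091 to 0.0050). The catalytic partner SPTLC2 had 3993, 3719 and 4294 reads, with log2 ratios of 0.33 (0.27 to 0.40) and 0.15 (0.082 to 0.21), under 1.5-fold at both steps. The activating small subunit SPTSSA had 1305, 833 and 1129 reads, with log2 ratios of -0.21 (-0.34 to -0.086) and 0.38 (0.25 to 0.51). SPTSSA thus lay lowest in RT, the reverse of most members. The ratio of SPTLC1 reads to SPTLC2 reads, which needs no scaling between libraries, was 1.33 (1.27 to 1.38) in Ctrl, 1.86 (1.78 to 1.93) in RT, and 1.63 (1.57 to 1.69) in the RT + shHDAC6 library.

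KDSR, the reductase of the second step, had 2628 reads in Ctrl, 3868 in RT, and 3404 in the RT + shHDAC6 library, a rise of 0.99 (0.92 to 1.06) on the log2 scale after irradiation. Among the ceramide synthases, which attach fatty acids of different chain length, CERS2 prefers very long chains and CERS5 and CERS6 prefer the shorter C16 chain. CERS2 had 8748, 12079 and 11056 reads and rose by 0.90 (0.86 to 0.94). CERS6 had 6435, 7649 and 6597 reads and rose by 0.68 (0.64 to 0.73), and CERS5 had 1830, 2046 and 1901 reads and rose by 0.60 (0.50 to 0.69), close to the limit of 0.585. All 3 were highest in RT once depth was taken into account, and their ratios between RT and RT + shHDAC6 lay between -0.28 and -0.17. CERS4 had 114, 71 and 68 reads, and its intervals included 0 at both steps.

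The ORMDL proteins bind serine palmitoyltransferase and restrain it when ceramide is plentiful. ORMDL1 had 2048, 2594 and 2394 reads and rose by 0.78 (0.69 to 0.86) after irradiation, and ORMDL3 had 1839, 2174 and 1923 reads and rose by 0.68 (0.59 to 0.77). ORMDL2 had 928, 977 and 790 reads, and its ratio of 0.51 (0.38 to 0.64) lay just under the limit, and 44% of its exon length overlaps exons on the other strand. Genes of the enzyme and of its inhibitors were therefore both among the risen genes. Reads of ORMDL3 per read of SPTLC1 came to 0.347 (0.329 to 0.366) in Ctrl, 0.315 (0.300 to 0.330) in RT, and 0.275 (0.261 to 0.289) in the RT + shHDAC6 library. This pair lay further toward SPTLC1 in both irradiated libraries, although the Ctrl and RT intervals overlap. It does not stand for the whole enzyme. After irradiation the log2 ratio of SPTLC2, 0.33, lay below the 0.68 of ORMDL3, and that of SPTSSA was -0.21.

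For sphingomyelin, 2 of 5 genes rose after irradiation, against 15.6% of all genes tested, and none fell. None passed 1.5-fold between RT and RT + shHDAC6, where 3.69% of all genes tested rose and 6.04% fell. SMPD1, the acid sphingomyelinase of lysosomes and the outer plasma membrane, had 1597 reads in Ctrl, 2925 in RT, and 2130 in the RT + shHDAC6 library. It was highest in RT and intermediate in RT + shHDAC6, with log2 ratios of 1.31 (1.22 to 1.40) for RT against Ctrl, 2.48-fold, of -0.52 (-0.60 to -0.44) for RT + shHDAC6 against RT, and of 0.79 (0.69 to 0.88) for RT + shHDAC6 against Ctrl. SMPD4, a neutral sphingomyelinase of the endoplasmic reticulum and nuclear envelope, had 5514, 6526 and 6873 reads. It rose by 0.68 (0.63 to 0.73) and did not share the decline of SMPD1, its second ratio being 0.013 (-0.036 to 0.062). SMPD2, another neutral sphingomyelinase, had 529, 522 and 500 reads and ratios of 0.42 (0.24 to 0.59) and -0.12 (-0.30 to 0.056), with 21.8% of its exon length overlapping exons on the other strand.

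The synthases that consume ceramide to make sphingomyelin stayed under 1.5-fold at both steps. SGMS1, of the Golgi, had 2181, 2284 and 2220 reads, with log2 ratios of 0.50 (0.42 to 0.59) and -0.10 (-0.19 to -0.018). SGMS2, also found at the plasma membrane, had 1441, 1444 and 1629 reads, with ratios of 0.44 (0.33 to 0.54) and 0.11 (0.0087 to 0.22). Reads of SMPD1 per read of SGMS1 were 0.732 (0.686 to 0.781) in Ctrl, 1.28 (1.21 to 1.35) in RT, and 0.960 (0.904 to 1.02) in the RT + shHDAC6 library. The share of the sphingomyelinase in the pair was thus highest in RT. Per exon length, SMPD1 lay above SGMS1 in every library, at 62.8 against 36.6 TPM in Ctrl, 124 against 41.4 in RT and 93.0 against 41.4 in RT + shHDAC6.

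Glycolipid synthesis was the role group with the most falls between RT and RT + shHDAC6. Of its 7 tested genes 3 fell at that step, against 6.04% of all genes tested, and none rose. The median log2 ratio was -0.47, and all 7 lay below 0 on TMM-scaled counts, although ST3GAL2, at -0.010, lay above 0 with library totals or upper quartile scaling. After irradiation, 2 of the 7 rose and 1 fell, against 15.6% and 10.6% of all genes tested, and the median was 0.42. UGCG, which makes glucosylceramide and so opens the pathway, had 4709, 6356 and 6252 reads, a rise of 0.87 (0.81 to 0.92) and then a ratio of -0.086 (-0.14 to -0.035). It was the member of the group closest to the ceramide genes in this respect, high in both irradiated libraries.

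The lowest ratios of the 41 genes between RT and RT + shHDAC6 were those of ST3GAL5, A4GALT, ARSA and B4GALNT1, of which all but ARSA act beyond lactosylceramide. ST3GAL5, the sialyltransferase that makes ganglioside GM3, had 441 reads in Ctrl, 191 in RT, and 117 in the RT + shHDAC6 library. It fell at each step, with log2 ratios of -0.77 (-1.02 to -0.52) and then of -0.77 (-1.11 to -0.43), and its ratio of RT + shHDAC6 to Ctrl was -1.54 (-1.85 to -1.24). Of the 41 genes it alone had a ratio below 0 with an interval that excluded 0 at both steps. A4GALT, which makes the globoside Gb3, had 331, 290 and 193 reads, with a ratio of 0.24 (0.012 to 0.48) after irradiation and a fall, at -0.65 (-0.92 to -0.38), between RT and RT + shHDAC6.

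B4GALNT1, the synthase of GM2 and GD2, followed another course. It had 5066 reads in Ctrl, 7367 in RT, and 4993 in the RT + shHDAC6 library, rose by 0.98 (0.92 to 1.03), and fell by 0.62 (interval of the log2 ratio -0.68 to -0.57) between RT and RT + shHDAC6. It was the only tested member past 1.5-fold in opposite directions at the 2 steps. The ratio of B4GALNT1 reads to ST3GAL5 reads was 11.5 (10.4 to 12.7) in Ctrl, 38.6 (33.4 to 44.8) in RT, and 42.7 (35.5 to 51.7) in the RT + shHDAC6 library. The gap between the downstream enzyme and the GM3 synthase was therefore wider in both irradiated libraries than in Ctrl. Of the exon length of B4GALNT1, 27.1% overlaps exons of genes on the other strand, so its reads may include theirs if strand was not used in counting.

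The lactosylceramide synthases were close to each other at both steps. B4GALT5, the most abundant gene of the group per exon length, had 13497, 13423 and 10569 reads, with ratios of 0.43 (0.39 to 0.46) and -0.41 (-0.44 to -0.37), and B4GALT6 had 1106, 1098 and 830 reads, with ratios of 0.42 (0.30 to 0.55) and -0.47 (-0.60 to -0.33). In RT + shHDAC6 the intervals of both ratios to Ctrl included 0, at 0.020 (-0.017 to 0.057) and -0.041 (-0.17 to 0.090). ST3GAL2, which sialylates later gangliosides, had 3294, 2359 and 2445 reads, and its intervals included 0 in every comparison.

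In glycolipid breakdown, all 9 tested genes lay above 0 after irradiation, with a median of 0.48, and 4 of them rose, against 15.6% of all genes tested. Between RT and RT + shHDAC6 the median was -0.28 and 1 of the 9, ARSA, fell, against 6.04% of all genes tested. GLA, the alpha-galactosidase that removes the terminal galactose of Gb3, had 1771, 2637 and 2299 reads and rose by 1.01 (0.92 to 1.10). GLB1, the beta-galactosidase of GM1 that also serves as a marker of senescent cells, had 5505, 7815 and 6724 reads and rose by 0.94 (0.89 to 0.99). Their ratios between RT and RT + shHDAC6 were -0.26 (-0.34 to -0.18) and -0.28 (-0.33 to -0.23), so that both stayed more than 1.5-fold above Ctrl, at 0.75 (0.66 to 0.84) and 0.66 (0.61 to 0.71).

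PSAP had 34643 reads in Ctrl, 49181 in RT, and 36802 in the RT + shHDAC6 library. It rose by 0.94 (0.92 to 0.96) and had a ratio of -0.48 (-0.50 to -0.46) between RT and RT + shHDAC6, which left it 0.46 (0.44 to 0.48) above Ctrl. The knockdown library thus lay between the others, near the midpoint on a log2 scale. NEU1, the lysosomal sialidase, had 1784, 1980 and 1835 reads, and its ratio of 0.5855 (0.49 to 0.68) only just passed the limit of 0.585. Reads of GLB1 per read of NEU1, which share a lysosomal complex, were 3.09 in Ctrl, 3.95 in RT, and 3.66 in the RT + shHDAC6 library.

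ARSA, the sulfatase that degrades sulfatide, had 1213, 1185 and 798 reads. Its ratio was 0.40 (0.28 to 0.52) after irradiation and it fell by 0.63 (interval of the log2 ratio -0.76 to -0.50) between RT and RT + shHDAC6, ending below Ctrl at -0.23 (-0.36 to -0.10). HEXA, the alpha subunit of the hexosaminidase that degrades GM2, had 734, 757 and 588 reads, and GM2A, its activator, had 3494, 3362 and 2754. Both were under 1.5-fold at each step, with ratios of 0.48 and 0.38 and then of -0.43 and -0.35, and their intervals against Ctrl included 0 in RT + shHDAC6.

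The non-lysosomal members of this group behaved differently. GBA2, a glucosylceramidase outside the lysosome, had 4114, 3551 and 4018 reads, with ratios of 0.22 (0.16 to 0.29) and 0.12 (0.051 to 0.18). NEU3, the sialidase of the plasma membrane, had 1256, 1224 and 1490 reads, with ratios of 0.40 (0.28 to 0.51) and 0.22 (0.11 to 0.33). Both lay above 0 at each step, and NEU3 passed 1.5-fold only in RT + shHDAC6 against Ctrl, at 0.62 (0.51 to 0.73).

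In the handling of ceramide and sphingosine phosphate, 4 of 8 genes rose after irradiation, against 15.6% of all genes tested, and none fell. None of the 8 passed 1.5-fold between RT and RT + shHDAC6, against 3.69% of all genes tested that rose and 6.04% that fell. SPHK1, the sphingosine kinase that is induced by many growth signals, had 1970 reads in Ctrl, 3998 in RT, and 2851 in the RT + shHDAC6 library. Its ratio of 1.46 (1.38 to 1.53) after irradiation, 2.74-fold, was the largest of the 41 genes, and its ratio of -0.55 (-0.62 to -0.48) at the second step was just under 1.5-fold. RT + shHDAC6 stayed 0.91 (0.82 to 0.99) above Ctrl. SPHK2, the mainly nuclear and mitochondrial kinase, had 1399, 1402 and 1280 reads, with ratios of 0.44 (0.33 to 0.55) and -0.19 (-0.30 to -0.083), and 22.3% of its exon length overlaps exons on the other strand.

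Of the enzymes that remove sphingosine 1-phosphate, the phosphatase SGPP1 and the lyase SGPL1 differed. SGPP1 had 1983, 2316 and 2859 reads, rose by 0.66 (0.57 to 0.75), and was higher still in RT + shHDAC6, with a ratio of 0.24 (0.16 to 0.32) to RT and of 0.90 (0.82 to 0.98) to Ctrl. SGPL1, which cleaves sphingosine 1-phosphate irreversibly, had 3959, 3507 and 2723 reads, with ratios of 0.26 (0.19 to 0.33) and -0.43 (-0.50 to -0.35), and lay below Ctrl in RT + shHDAC6 at -0.17 (-0.24 to -0.096). Reads of SPHK1 per read of SGPL1 were 0.498 (0.471 to 0.525) in Ctrl, 1.14 (1.09 to 1.19) in RT, and 1.05 (0.993 to 1.10) in the RT + shHDAC6 library. In this pair the balance was thus further toward the kinase in both irradiated libraries than in Ctrl. It does not cover SGPP1, whose ratio of RT + shHDAC6 to Ctrl, 0.90, was close to the 0.91 of SPHK1. Per exon length, SPHK1 lay above SGPL1 in every library, at 48.1 against 37.0 TPM in Ctrl, 105.5 against 35.4 in RT and 77.3 against 28.2 in RT + shHDAC6.

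Of the ceramidases, ASAH1, the acid enzyme of lysosomes, had 3451, 4054 and 3348 reads and rose by 0.67 (0.60 to 0.73), with a ratio of -0.34 (-0.40 to -0.27) at the second step. ACER3, an alkaline enzyme of the endoplasmic reticulum and Golgi, had 2156, 2596 and 2666 reads, rose by 0.70 (0.62 to 0.79) and then had a ratio of -0.024 (-0.10 to 0.055). ACER2 had at most 104 reads and intervals that included 0 at both steps. The ceramide kinase CERK had 1932, 1616 and 1733 reads, with ratios of 0.18 (0.081 to 0.27) and 0.039 (-0.060 to 0.14).

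Against Ctrl, RT + shHDAC6 cells had 14 sphingolipid genes higher, against 13.5% of all genes tested, and 1 lower, ST3GAL5, against 12.0% of all genes tested. The median was 0.41, against 0.033 over all genes tested. The 14 comprised SPTLC1, KDSR, CERS2, DEGS1, ORMDL1, SMPD1, SMPD4, UGCG, GLA, GLB1, NEU3, ACER3, SPHK1 and SGPP1. The genes past 1.5-fold in RT but not in RT + shHDAC6, both against Ctrl, were CERS5, CERS6, ORMDL3, B4GALNT1, PSAP, NEU1 and ASAH1, whose ratios to Ctrl in RT + shHDAC6 were between 0.33 and 0.46. The role groups ended at different levels. Their median ratios to Ctrl in RT + shHDAC6 were 0.46 for ceramide synthesis, 0.55 for sphingomyelin, -0.041 for glycolipid synthesis, 0.41 for glycolipid breakdown and 0.29 for the ceramidase and sphingosine phosphate genes.

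Isoenzyme shares within a library do not depend on scaling between libraries. Weighted by exon length, SPHK1 made up 65.7% (64.1 to 67.2) of the sphingosine kinase signal in Ctrl, 79.5% (78.5 to 80.5) in RT and 75.2% (73.9 to 76.4) in RT + shHDAC6. The CERS2 share of the 4 ceramide synthases was 60.4% (59.6 to 61.1), 64.4% (63.8 to 65.0) and 65.4% (64.7 to 66.0), while that of CERS6 was 30.1% (29.4 to 30.7), 27.7% (27.1 to 28.2) and 26.4% (25.9 to 27.0). The ceramide synthase signal was therefore shifted toward CERS2 in both irradiated libraries. The CERS2 and CERS6 shares carry a limit, since 37.2% and 43.8% of their exon lengths overlap exons of genes on the other strand. With canonical transcript lengths the CERS6 share was lower, at 17.2%, 15.7% and 14.9%, and still lowest in RT + shHDAC6.

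The other 4 families differed in how far the shares moved. B4GALT5 held 93.0% (92.6 to 93.4) of the lactosylceramide synthase signal in Ctrl, 93.0% (92.6 to 93.4) in RT and 93.3% (92.9 to 93.7) in RT + shHDAC6, with overlapping intervals. SGMS1 held 64.3% (62.7 to 65.8), 65.3% (63.8 to 66.8) and 61.8% (60.3 to 63.3) of the sphingomyelin synthase signal. ORMDL2 held 25.6% (24.3 to 27.0), 22.9% (21.6 to 24.1) and 20.9% (19.7 to 22.2) of the ORMDL signal, with the limit that 44% of its exon length overlaps exons on the other strand. ACER3 held 26.3% (25.2 to 27.3), 28.03% (27.0 to 29.0) and 32.3% (31.2 to 33.5) of the signal of the 3 ceramidases, which is its highest share in RT + shHDAC6.

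The 3 genes under the mean of 50 reads are given by their counts. SPTLC3, an alternative catalytic subunit of serine palmitoyltransferase, had 31, 15 and 44 reads. ST8SIA1 had 26, 18 and 6, and GALC, the galactosylceramidase of lysosomes, had 61, 20 and 32. At this depth the intervals of the ratio between Ctrl and RT were -1.61 to 0.32 for SPTLC3, -1.05 to 0.83 for ST8SIA1 and -1.98 to -0.42 for GALC. In RT + shHDAC6 against RT the ratio was 1.46 (0.62 to 2.44) for SPTLC3, -1.57 (-3.27 to -0.25) for ST8SIA1 and 0.60 for GALC, whose interval included 0, so that SPTLC3 was higher in RT + shHDAC6 than in RT on 44 against 15 reads.

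A list of 44 further genes of the pathway, such as isoenzymes, transfer proteins and sphingosine 1-phosphate receptors, was examined in the same way, and 27 of them were tested. After irradiation 8 rose (29.6% of the 27, against 15.6% of all genes tested) and 1 fell (3.70%, against 10.6%), with a median of 0.36. Of the 27, 16 lay above 0 (59.3%, against 53.8% of all genes tested) and 11 below, a more even split than that of the 41 members. Among the 8 was CTSA, the protective protein of the GLB1 and NEU1 complex, with 12481, 17674 and 14185 reads. ELOVL1, which elongates fatty acids to the very long chains used by CERS2, had 3585, 5418 and 4886 reads and rose by 1.03 (0.97 to 1.09).

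Between RT and RT + shHDAC6 the further pathway genes had 3 rises and 3 falls, each 11.1% of the 27, against 3.69% and 6.04% of all genes tested. The largest of the 6 differences were falls. UGT8, which makes galactosylceramide, the precursor of the sulfatide that ARSA degrades, had 1031 reads in Ctrl, 1466 in RT, and 314 in the RT + shHDAC6 library. It rose by 0.94 (0.83 to 1.06) and then fell by 2.28 on the log2 scale (-2.47 to -2.11), below Ctrl. ST6GALNAC3, a sialyltransferase of gangliosides and glycoproteins, had 374, 367 and 81 reads and fell by 2.23 (-2.61 to -1.89). PLPP3, a lipid phosphatase that can act on sphingosine 1-phosphate, had 259, 365 and 697 reads, and was higher by 0.93 (0.70 to 1.16) and then by 0.87 (0.69 to 1.06).

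The sphingolipid genes were also set beside 35 other lysosomal genes and 28 genes of cholesterol and fatty acid synthesis, all of which were tested. Of the lysosomal genes 22 rose (62.9%, against 15.6% of all genes tested) and none fell (10.6%) after irradiation, with a median of 0.69. Between RT and RT + shHDAC6 none rose (3.69% of all genes tested) and 4 fell (11.4%, against 6.04%), with a median of -0.32. The 4 were GUSB, CTSB, ACP2 and CTSC, named after their values were seen. Of the cholesterol and fatty acid genes 3 rose (10.7%) and 2 fell (7.14%) after irradiation, both shares below those of all genes tested, with a median of 0.15. The 2 were HMGCS1 and INSIG1, likewise named after their values were seen. None passed 1.5-fold between RT and RT + shHDAC6, with a median of -0.079. In both steps the sphingolipid medians of 0.51 and -0.19 lay between those of the 2 lists. The rise was not limited to the lysosomal members, because 8 of 12 genes of ceramide synthesis, an endoplasmic reticulum pathway, were among the 20.

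**Figure D1:**
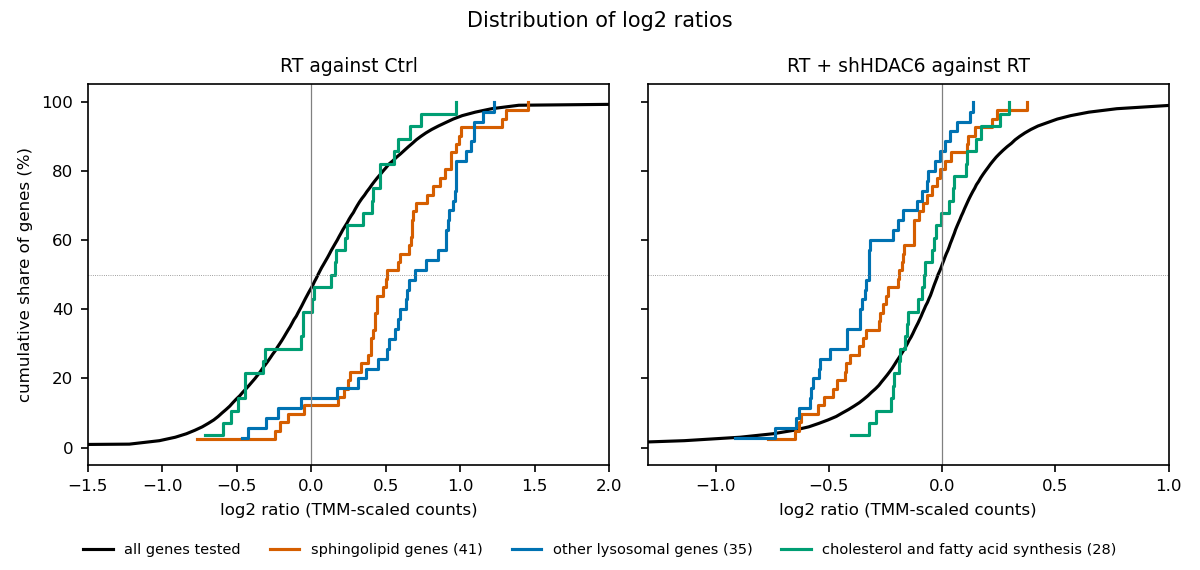
Cumulative share of genes, in percent, by log2 ratio of TMM-scaled counts, RT against Ctrl on the left and RT + shHDAC6 against RT on the right. Lines stand for all 13636 genes tested, 41 sphingolipid genes, 35 other lysosomal genes and 28 genes of cholesterol and fatty acid synthesis. The sphingolipid line crosses the middle at 0.51 on the left and at -0.19 on the right, between the lysosomal line and the line of the other lipid genes.

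The number of rises depends on how the libraries are scaled. With library totals in place of TMM factors, every ratio of RT to Ctrl drops by 0.22 on the log2 scale, and 11 sphingolipid genes rose: SPHK1, SMPD1, DEGS1, GLA, KDSR, B4GALNT1, PSAP, GLB1, CERS2, UGCG and SPTLC1. Over all genes tested 8.18% then rose and 20.6% fell, in place of 15.6% and 10.6%. The median of the sphingolipid genes less that of all genes tested was 0.46 with each of the 4 scalings, since a scaling moves every gene alike. Between RT and RT + shHDAC6, where library totals raise every ratio by 0.084, ST3GAL5 alone still fell, against 4.91% of all genes tested. The median difference from all genes was -0.17 at that step.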

How the data were processed

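Per the labels, total RNA of T24 cells went into stranded mRNA libraries, and reads were trimmed with cutadapt and aligned to GRCh38 with STAR (2.6.1a in the submitters' processing notes). The authors deposited 1 table of raw read counts per gene on GENCODE 28; strand and multiple-mapping settings are not given in the sources used here. It was used as deposited, and all its columns belong to the 3 libraries.

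Gene symbols and exon lengths came from GENCODE 44 on the same build (57754 of 58381 identifiers matched) and upstream sequences from RefSeq. Counts were scaled by TMM (edgeR 4.0.16, R 4.3.3), 0.5 was added to each, and log2 ratios were taken. Genes averaging at least 50 counts were tested, and 1.5-fold or more was called. Intervals are 95% exact (Clopper-Pearson) intervals of counting error, and reads are not independent molecules. The study ranked genes with a simulated-noise probability, for which the fold rule stands here, since 1 library per condition leaves no residual degrees of freedom. The ratios, calls and intervals were tested on simulated counts with counting error only. The simulation took the TMM scaling as given, so it covers neither the scaling nor a spread between cultures.

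Counts in every library are given for each member past 1.5-fold in any comparison and for the most abundant member per exon length of each role group, others by choice. Further pathway genes could be named past 1.5-fold, and some genes of the comparison lists are not reported here by name. Members, lists and role groups were chosen with earlier results of these data known, and the read ratios between pairs of members, and the genes whose upstream sequences are shown, after their values were seen. Alternatives were library totals, DESeq2 1.42.0 size factors and upper quartile scaling, other filters, folds and added counts, and other length weights.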

Additional observations from a re-analysis of the deposited data

How the results depend on the processing

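No paired analysis was possible because each condition has 1 library, and for the same reason no library could be left out. With library totals, 11 members in place of 20 were higher in RT than in Ctrl (median 0.29), 1 in place of 4 was lower in RT + shHDAC6 than in RT (median -0.11), and 8 in place of 14 were higher in RT + shHDAC6 than in Ctrl (median 0.28, from 0.2750). Of all genes tested, 8.18%, 4.91% and 8.87% were then called in these directions. The 9 calls lost in the first comparison were CERS5, CERS6, ORMDL1, ORMDL3, SMPD4, NEU1, ASAH1, ACER3 and SGPP1. A limit of 0.32 on the log2 scale in place of 0.585 gave 32 higher in RT against Ctrl, 1 higher and 14 lower in RT + shHDAC6 against RT, and 25 higher and 3 lower in RT + shHDAC6 against Ctrl. A limit of 2-fold gave 4 higher and 0 lower, 0 lower, and 1 higher in the same order. Over all genes tested, 0.32 was the 71st percentile in RT against Ctrl and the 72nd in RT + shHDAC6 against Ctrl. In RT + shHDAC6 against RT, -0.33 was the 15th percentile. A ratio of 1.01 was the 96th percentile in RT against Ctrl, and 1.05 the 97th in RT + shHDAC6 against Ctrl. A minimum mean of 10 counts, or no minimum, gave 3 lower in RT against Ctrl, 2 higher in RT + shHDAC6 against RT and 2 lower in RT + shHDAC6 against Ctrl, since the sparse genes SPTLC3, GALC and ST8SIA1 then entered.

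DESeq2 size factors, upper quartile scaling, 1 added count and a call that also requires the counting interval to exclude 0 each left these counts within 1.5 times the reported ones. Leaving out the 6 members with over 20% of their exon length on the other strand of another gene, an alternative chosen after seeing the data, also did. Scaling changed the sign of some small ratios, among them SPTLC1, DEGS1, ST3GAL2 and ACER3 for RT + shHDAC6 against RT with library totals. Ceramidase and ceramide synthase shares depend on the length used: in Ctrl, CERS6 was 30.1% by merged exon length and 17.2% by canonical transcript length, CERS5 was 8.66% and 13.3%, and ACER2 was 10.6% by merged exon length, 1.82% by counts and 2.38% by canonical transcript length. Depth limits CERS4, ACER2, SPTLC3, ST8SIA1 and GALC, and the spread between cultures is unknown for every gene.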
